A study of Homo sapiens with 12 samples.

Results

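hsa-miR-769-5p, hsa-miR-548o-3p and hsa-miR-3158-3p (written below without hsa) are 3 of the 1277 mature miRNAs counted in DROSHA-deficient cells, and all 3 stood higher with a belt-deleted DROSHA, and lower with the DROSHA mutant m4, than with the wild type enzyme. They were chosen by that pattern of read counts over these same libraries, so their differences between the mutants and wild type are described here without a test. The cells were DROSHA-knockout HCT116, derived from a human colorectal carcinoma. Every culture received the plasmid pXC-NLS-DG4 (4.5 µg). Together with it, 3 libraries each came from cells given pCK-DROSHA_belt_deletion, pCK-DROSHA_m4, pCK-DROSHA wild type or the empty pCK plasmid, 12 libraries in all. The DROSHA plasmids were also used at 4.5 µg. All groups therefore share the knockout and the DG4 plasmid, and DROSHA activity came from a transfected plasmid. The labels do not say which residues m4 alters or the belt deletion removes, what DG4 encodes, whether the knockout line is 1 clone, or whether the repeats are separate cultures, so p-values measure the spread between these libraries.

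DROSHA is the nuclear RNase III enzyme that, with its partner DGCR8, cuts the hairpin out of a primary miRNA transcript. DICER then trims the hairpin to a duplex, and the strand that stays in an Argonaute protein is the mature miRNA, whose seed at bases 2 to 8 pairs with target mRNAs. Without DROSHA most miRNAs are lost, whereas mirtrons and a few hairpins such as miR-320a are made without it. The miR-548 family is a large primate family whose hairpins derive from Made1 transposable elements, short palindromic repeats that fold back on themselves.

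The mature sequences show that the members share no seed. They are printed 5′ to 3′ from RefSeq (GRCh38.p14) with the seed in capitals, to set the 3 members beside the opposite arms of their hairpins.
miR-769-5p: uGAGACCUcuggguucugagcu
miR-769-3p: cUGGGAUCuccggggucuugguu
miR-548o-3p: cCAAAACUgcaguuacuuuugc
miR-3158-3p: aAGGGCUUccucucugcaggac
miR-3158-5p: cCUGCAGAgaggaagcccuuc
Each member is 22 nt long. The GC content is 54.5% for miR-769-5p, 40.9% for miR-548o-3p and 59.1% for miR-3158-3p, beside a median of 52.4% (quartiles 45.5 and 61.9%) over the 271 tested miRNAs with a RefSeq sequence. No other miRNA in the table with a RefSeq sequence has any of the 3 seeds, so no seed relative could be compared.

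All 5 genes that encode the members lie in introns of protein-coding genes in GENCODE 29 (GRCh38). MIR769 is at chromosome 19, 46018932 to 46019049, in CCDC61 on the same strand. miR-548o-3p has 2 genes, MIR548O at chromosome 7, 102405742 to 102405855, opposite to PRKRIP1, and MIR548O2 at chromosome 20, 38516563 to 38516632, in the sense of RALGAPB. The deposited table gives the same reads for both in every library, so the 2 loci cannot be told apart. MIR3158-1 and MIR3158-2 occupy the same 81 bases, chromosome 10, 101601417 to 101601497, on opposite strands in DPCD. In the hairpins below the annotated arms are in capitals, to show how nearly the arms of the miR-3158 hairpins mirror each other.
MIR769: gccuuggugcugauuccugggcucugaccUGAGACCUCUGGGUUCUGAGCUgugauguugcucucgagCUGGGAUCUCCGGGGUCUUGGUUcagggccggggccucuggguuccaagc
MIR3158-1: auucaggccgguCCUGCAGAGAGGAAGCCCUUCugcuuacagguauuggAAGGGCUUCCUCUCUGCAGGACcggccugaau
MIR3158-2: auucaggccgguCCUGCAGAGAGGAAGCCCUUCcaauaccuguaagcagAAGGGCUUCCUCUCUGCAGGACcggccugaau
The 5p and 3p arms of miR-3158 are complementary over 20 bases, and the 5p arm on 1 strand covers 20 positions of the 3p arm on the other. The table lists equal reads for both arms in 11 of 12 libraries and differs by 1 read in the other. Reads given to miR-3158-3p may therefore belong to either arm and to either strand, and miR-3158-5p is no separate measurement.

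Library totals in the deposited table ranged from 132667 to 407461 reads. Scaled reads are counts divided by a size factor from 5 DROSHA-independent features (the mirtrons miR-877, miR-1224 and miR-1226, the capped miR-484, and miR-320), because supplying DROSHA moves most other miRNAs at once. Between belt deletion and wild type these features differed among themselves by log2 changes from -0.37 (miR-484) to 0.78 (miR-1224), and between m4 and wild type from -0.08 (miR-484) to 0.69 (miR-1224). All 7 markers of colon epithelium or carcinoma on the list used, such as miR-21-5p and miR-200c-3p, had reads. Their summed scaled level was 67850 to 79530 with the belt deletion and 5830 to 9737 with m4. With wild type it was 47460 to 102900, and with the empty plasmid 1849 to 2558. Of 11 markers of other cell types 8 had reads, and miR-124-3p, miR-223-3p and miR-133a-3p had none. The summed scaled level of these 8 was 569 to 786 with the belt deletion, 325 to 628 with m4, 479 to 700 with wild type and 216 to 293 with the empty plasmid; its part in the results was not tested. The libraries come from whole cultures, so the number of cells that took up a plasmid and the amount of miRNA made per cell cannot be told apart.

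miR-769-5p was the most abundant member in every group. Its counts were 216, 251 and 187 reads in belt deletion libraries 1, 2 and 3, 13, 15 and 14 with m4, 57, 51 and 40 with wild type, and 3, 8 and 7 with the empty plasmid. No group overlapped another after scaling, and the order was belt deletion, wild type, m4 and empty plasmid. Means were 221 ± 82.2 scaled reads with the belt deletion, 15.2 ± 2.31 with m4, 68.2 ± 23.3 with wild type and 4.16 ± 1.71 with the empty plasmid (SD, n = 3 each). The belt deletion mean was 3.25-fold the wild type mean (log2 change 1.70, SE 0.38), and the m4 mean was 22.4% of it (log2 change -2.15, SE 0.41). As RPM, for which each count is divided by its library's total, the means were 759 ± 255 with the belt deletion, 108 ± 35.5 with m4, 226 ± 57.9 with wild type and 25.6 ± 13.7 with the empty plasmid (n = 3 each). RPM uses no size factor, but miR-320 is a large part of the totals. It held 126482 of 323871 reads in belt deletion library 1 and 227173 of 275834 in empty plasmid library 3. By mean level miR-769-5p ranked 53rd of 310 tested miRNAs with the belt deletion, 197th with m4, 107th with wild type and 250th with the empty plasmid.

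miR-548o-3p had almost no reads with m4 or the empty plasmid. Its counts were 83, 59 and 44 reads with the belt deletion, 1, 0 and 2 with m4, 9, 8 and 5 with wild type, and 1, 1 and 0 with the empty plasmid. Belt deletion and wild type libraries did not overlap each other or the remaining groups, whereas m4 and empty plasmid overlapped at a few reads. Scaled means were 61.5 ± 20.8 with the belt deletion, 1.21 ± 1.29 with m4, 10.2 ± 4.4 with wild type and 0.483 ± 0.419 with the empty plasmid (SD, n = 3 each). A library with no read allows up to 2.77 scaled reads (m4 library 2) or 1.99 (empty plasmid library 3), taking 3 reads as the limit. Pooled ratios compare summed reads, each sum divided by the summed size factors of its group. The pooled ratio of belt deletion to wild type was 6.22 (95% interval 3.99 to 10.2), and to m4 it was 55.8 (18.8 to 273). The pooled ratio of wild type to m4 was 8.97 (2.70 to 46.8), with 3 pooled reads in m4. These intervals cover counting error only, and the reads carry no molecular identifiers. The fitted log2 changes against wild type were 2.62 (SE 0.48) for the belt deletion and -3.05 (SE 0.77) for m4. Without m4 library 2 or 3 the m4 change was -2.40 or -4.03. No fold is given between m4 and the empty plasmid, where 3 and 2 reads were counted.

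miR-3158-3p followed the same order at similarly low counts. Its counts were 57, 45 and 46 reads with the belt deletion, 3, 9 and 0 with m4, 8, 10 and 8 with wild type, and 6, 3 and 5 with the empty plasmid. All belt deletion libraries stood above all others, while m4 and empty plasmid overlapped. Scaled means were 48.6 ± 8.69 with the belt deletion, 3.85 ± 4.19 with m4, 12.2 ± 5.04 with wild type and 3.31 ± 1.21 with the empty plasmid (SD, n = 3 each). The m4 library with no read (library 3) allows up to 3.84 scaled reads. The belt deletion mean was 3.99-fold the wild type mean (log2 change 2.03, SE 0.48). The m4 mean was 31.6% of it, a log2 change of -1.47 (SE 0.61), which was -2.67 without m4 library 2 and -0.996 without m4 library 3. Here m4 and wild type lie close: the highest m4 library had 8.32 scaled reads and the lowest wild type library 9.02.

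**Figure D1:**
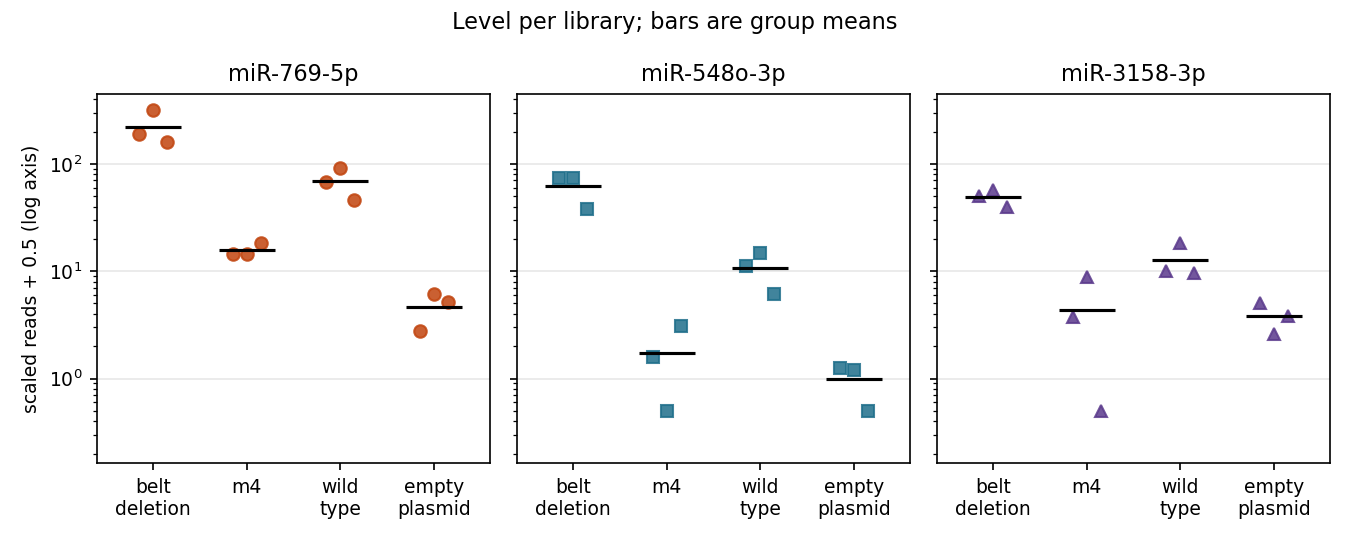
Scaled reads plus 0.5 on a log axis for each of the 3 members (panels) in belt deletion, m4, wild type and empty plasmid libraries. Points are libraries (n = 3 per group), bars are group means plus 0.5, and in each panel the belt deletion points lie above all others.

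The comparison of wild type DROSHA with the empty plasmid asks whether a miRNA depends on DROSHA, and the empty plasmid libraries played no part in choosing the members. The wild type libraries did, as the group both mutants were set against. miR-769-5p rose with wild type, to 68.2 scaled reads against 4.16 with the empty plasmid, a log2 change of 3.98 (SE 0.45, adjusted p = 9.93e-13). The adjusted p comes from edgeR's quasi-likelihood test with Benjamini-Hochberg adjustment over 310 miRNAs, of which 42.6% were called higher (adjusted p under 0.05) and 43.2% in either direction, so a call here is common among the miRNAs tested. miR-548o-3p and miR-3158-3p passed the filter on low counts only through the belt deletion libraries, and were not among the miRNAs tested with wild type and empty plasmid libraries alone. Their values are therefore given as a description. The pooled ratios, again scaled by the size factors, are of wild type to empty plasmid. For miR-548o-3p the scaled ratio was 20.6 (95% counting interval 5.06 to 181, from 22 and 2 unscaled reads). Its fitted log2 change was 4.08 (SE 0.79). For miR-3158-3p the scaled ratio was 3.47 (1.75 to 7.2, from 26 and 14 unscaled reads) and the log2 change 1.80 (SE 0.59). It depended on the scaling, at 1.03 with TMM, 1.06 with DESeq2 size factors and 1.03 with total counts. Each member was higher in 3 of 3 wild type libraries than in every empty plasmid library, as were 46.5% of all tested miRNAs. For miR-769-5p an exact two-sided permutation test gave p = 0.1, the smallest that 3 against 3 can give.

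Both mutants were also set beside the empty plasmid, as descriptions, since their libraries chose the members. For miR-769-5p the level was 53.3-fold that of the empty plasmid with the belt deletion and 3.67-fold with m4, with log2 changes of 5.68 (SE 0.47) and 1.83 (SE 0.46). The m4 libraries (13.9 to 17.9 scaled reads) lay above the empty plasmid libraries (2.26 to 5.56). miR-3158-3p differed in this: it stood 14.7-fold above the empty plasmid with the belt deletion (log2 change 3.83, SE 0.52) and at 1.16-fold with m4 (0.33, SE 0.66), where the groups overlapped. The pooled ratio of miR-3158-3p between m4 and the empty plasmid had a counting interval of 0.554 to 3.05, which includes no change and covers counting error only. For miR-548o-3p the pooled ratio of belt deletion to empty plasmid was 128 (34.9 to 1064). All belt deletion libraries of each member lay above all empty plasmid libraries, as for 46.5% of tested miRNAs, and for m4 this held for miR-769-5p alone of the 3, and for 45.2% of tested miRNAs. The 3 comparisons share the empty plasmid libraries.

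**Figure D2:**
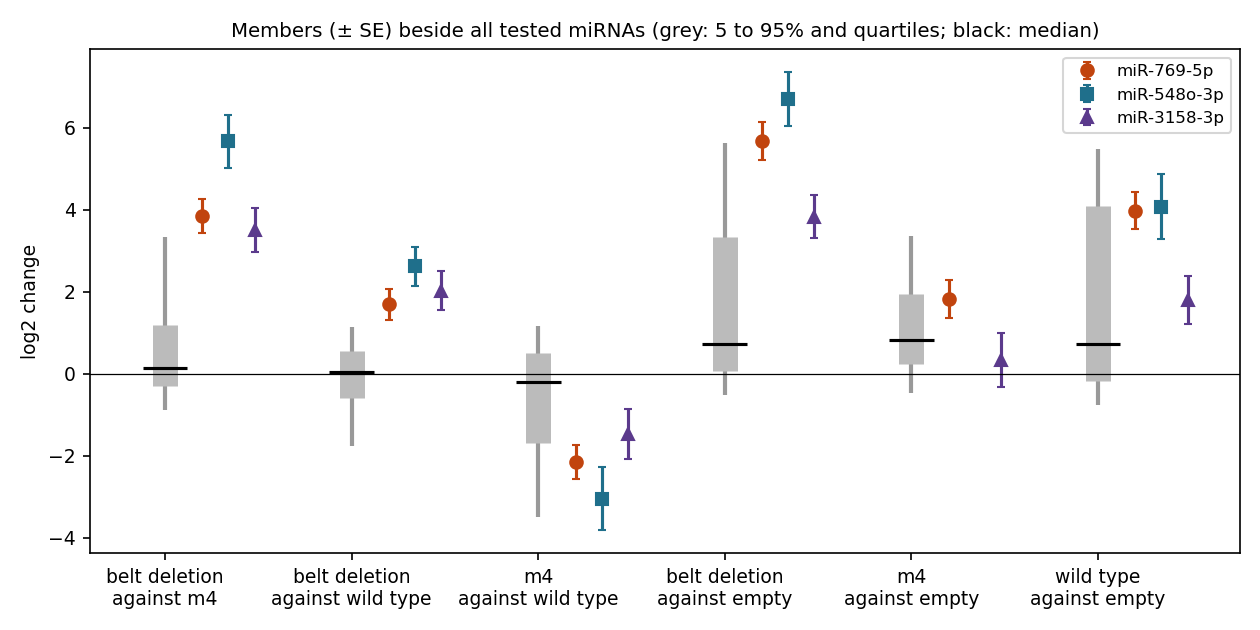
Log2 change (y axis) of the members in the 6 comparisons between groups (x axis), with bars of 1 SE, beside all 310 tested miRNAs, whose 5 to 95% range and quartiles are grey and whose median is a black line. The members lie above the 95% point of all miRNAs for belt deletion against m4 and against wild type; miR-548o-3p is not drawn for m4 against empty, where 3 and 2 reads were counted.

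Among the 310 tested miRNAs, belt deletion was called higher than wild type for 10 (3.23%), and m4 was called lower than wild type for 106 (34.2%). Both calls together held for 7 miRNAs (2.26%), the 3 members and miR-27b-3p, miR-28-3p, miR-30a-3p and miR-30e-3p, while the fitted changes had these signs, with or without a call, for 52 (16.8%). With either direction counted, 12.6% were called for belt deletion and 37.7% for m4 against wild type. For each member the libraries of the groups did not overlap, with belt deletion above wild type (15.2% of tested miRNAs), m4 below wild type (33.9%) and belt deletion above m4 (29.7%). Since the rule used these contrasts, the counts describe the choice and add nothing to it. In the order of log2 changes from belt deletion against wild type, miR-548o-3p was 3rd of 310, miR-3158-3p 5th and miR-769-5p 7th. In the order of belt deletion against m4, miR-548o-3p was 1st with 5.67 (SE 0.64), miR-769-5p 7th with 3.85 (SE 0.42) and miR-3158-3p 12th with 3.50 (SE 0.54). Their changes with m4 against wild type were less extreme, at places 26 (miR-548o-3p), 60 (miR-769-5p) and 89 (miR-3158-3p) from the bottom. With total counts as library size, which moves the median m4 change of all miRNAs to 0.86 from -0.19, the m4 changes against wild type were -1.10 for miR-769-5p, -2.10 for miR-548o-3p and -0.60 for miR-3158-3p. Of the miRNAs called lower with m4 and above wild type without a call with the belt deletion, the 3 nearest by belt deletion adjusted p were miR-455-5p (1.03 with the belt deletion and -1.80 with m4 against wild type), miR-148a-3p (0.84 and -1.38) and miR-671-3p (0.96 and -1.34). miR-216a-3p (3.41 and 0.99), miR-27a-5p (1.30 and -0.02) and miR-625-3p (1.75 and 0.12) were called higher with the belt deletion but not lower with m4. Under 21 alternative settings the number with both calls ran from 3 to 9; miR-769-5p and miR-548o-3p were among them in all 21, which their choice favours, and miR-3158-3p in 5.

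**Figure D3:**
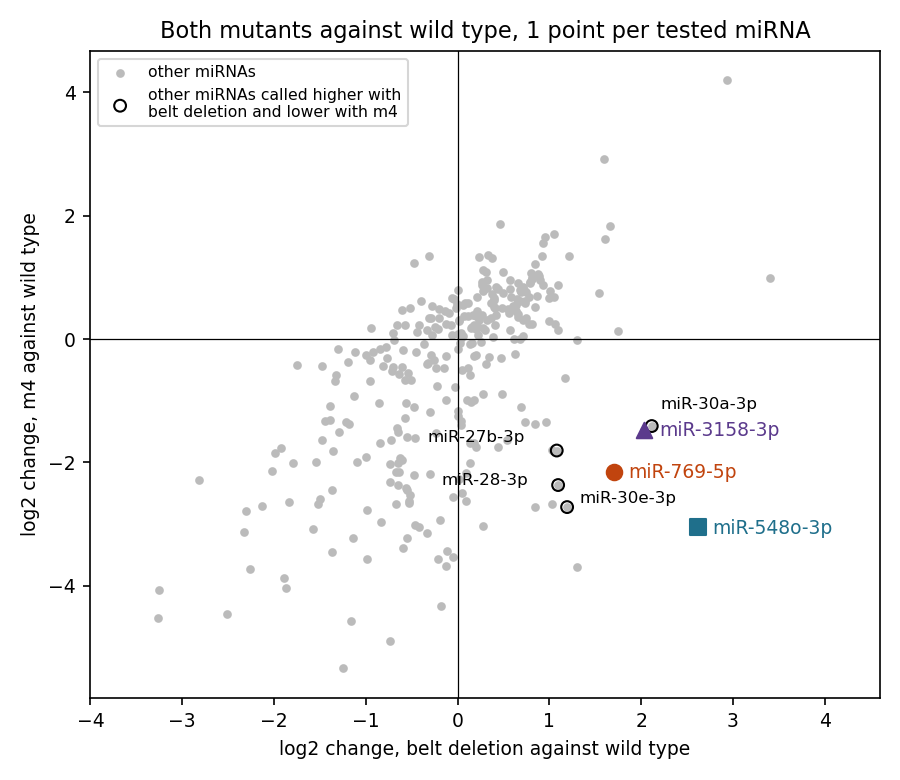
Log2 change of belt deletion against wild type (x axis) and of m4 against wild type (y axis), 1 point for each of 310 tested miRNAs. The members (filled, coloured) and the 4 other miRNAs with both calls (open circles) lie at the lower right, with miR-548o-3p farthest out at 2.62 and -3.05.

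The 4 other miRNAs with both calls are all 3p arms, whereas miR-769-5p is a 5p arm, and all 4 are more abundant with wild type than any member. miR-30a-3p and miR-30e-3p, of the miR-30 family, averaged 759 ± 151 and 450 ± 48.9 scaled reads with the belt deletion, 65.8 ± 22.0 and 29.7 ± 10.8 with m4, and 175 ± 44.9 and 197 ± 104 with wild type (SD, n = 3 each). miR-27b-3p, of the miR-23b cluster, averaged 3259 ± 708 with the belt deletion, 441 ± 131 with m4 and 1541 ± 549 with wild type (n = 3 each). miR-28-3p, from a LINE2-derived hairpin, averaged 364 ± 145, 33.0 ± 15.4 and 171 ± 59.5 in the same order (n = 3 each). Relative to wild type the belt deletion gave 2.11-fold (miR-27b-3p), 2.14-fold (miR-28-3p), 2.29-fold (miR-30e-3p) and 4.34-fold (miR-30a-3p), against 3.25-fold to 6.01-fold for the members.

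miR-22-3p, miR-29a-3p and miR-186-5p were lower with the belt deletion than with wild type, opposite to the members, and were chosen for it. With m4 they were also lower than with wild type, as the members were. miR-22-3p stood at 50.5 ± 5.04 scaled reads with the belt deletion and 33.8 ± 9.41 with m4, against 221 ± 58.0 with wild type (SD, n = 3 each). Its belt deletion level was 22.8% of wild type, and those of miR-29a-3p and miR-186-5p were 26.3% and 25.7%. With m4 they stood at 15.3%, 29.5% and 27.7% of wild type in the order miR-22-3p, miR-29a-3p and miR-186-5p, and the members at 22.4% (miR-769-5p), 11.8% (miR-548o-3p) and 31.6% (miR-3158-3p). With m4 the ranges of the 2 sets overlap, whereas with the belt deletion one set lies below and the other above wild type, as each was chosen to.

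**Figure D4:**
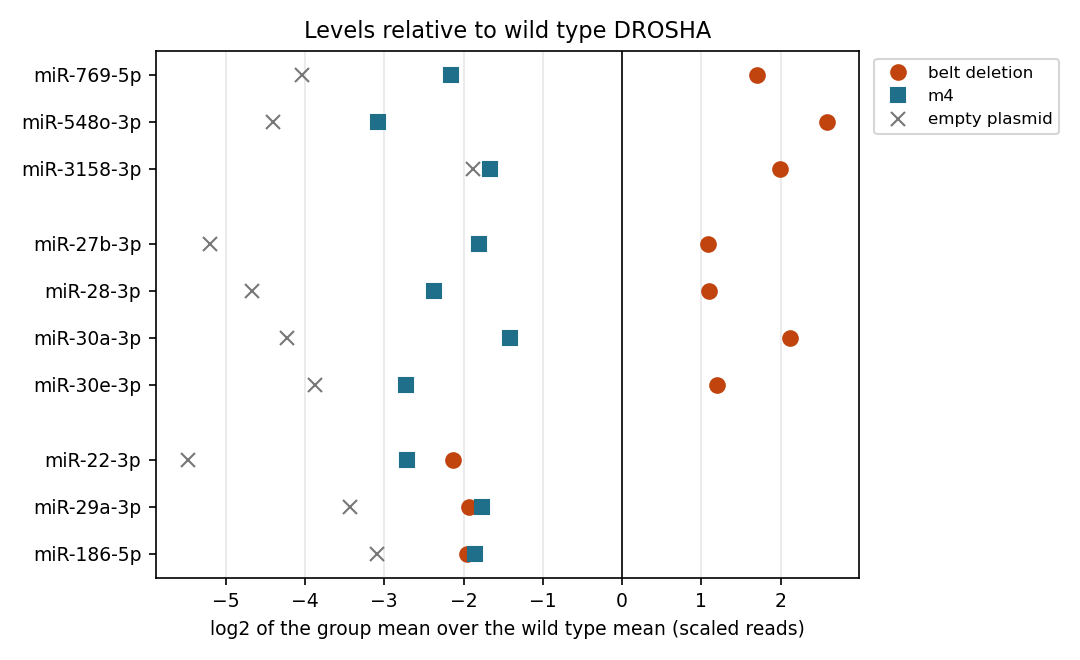
Log2 of the group mean over the wild type mean (x axis, scaled reads, n = 3 libraries per group) for the 3 members (top), the 4 other miRNAs with both calls (middle) and miR-22-3p, miR-29a-3p and miR-186-5p (bottom). Belt deletion circles lie right of the wild type line for the upper 7 and left of it for the lower 3, while m4 squares lie left of it for all 10; the empty plasmid value of miR-548o-3p rests on 2 reads.

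The members differed in their proportions. miR-769-5p was 3.6-fold as abundant as miR-548o-3p with the belt deletion and 6.66-fold with wild type, and 4.56-fold and 5.60-fold as abundant as miR-3158-3p. With the empty plasmid miR-769-5p and miR-3158-3p were nearly level, at a ratio of 1.26. The level of miR-548o-3p was 1.27-fold that of miR-3158-3p with the belt deletion, 0.315-fold with m4, 0.841-fold with wild type and 0.146-fold with the empty plasmid. The m4 and empty plasmid ratios rest on few pooled reads, 3 against 12 with m4 and 2 against 14 with the empty plasmid. The coefficient of variation of miR-548o-3p and miR-3158-3p was 106% and 109% with m4, at these few reads, against 33.8% and 17.9% with the belt deletion. With wild type these were 42.9% and 41.4%, and with the empty plasmid 86.8% and 36.7%. For miR-769-5p it was 37.1% with the belt deletion, 15.2% with m4, 34.2% with wild type and 41.1% with the empty plasmid.

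Likeness of pattern was measured as Pearson's r of log2(scaled reads + 0.5) with each of 309 other tested miRNAs over the 12 libraries, which fall into the same 4 groups and share the size factors. miR-769-5p was most like miR-30a-3p (r = 0.977, Spearman's rho = 0.979), miR-671-3p (0.969, rho = 0.958) and miR-30e-3p (0.961, rho = 0.951), where the median r was 0.328. miR-548o-3p was most like miR-129-5p (0.966, rho = 0.959), miR-30e-3p (0.939, rho = 0.907) and miR-769-5p (0.934, rho = 0.946). miR-129-5p had no read with the empty plasmid, and averaged 15.4 scaled reads with the belt deletion, 0.427 with m4 and 6.10 with wild type. In each m4 or empty plasmid library miR-548o-3p had 0 to 2 reads and miR-129-5p 0 or 1. Both lay near the floor there, which can raise their r. miR-3158-3p was most like miR-146b-5p (0.802, rho = 0.825), miR-30e-3p (0.796, rho = 0.888) and miR-769-5p (0.762, rho = 0.811). In the other direction miR-3158-3p ranked 93rd of 309 for miR-769-5p and 68th for miR-548o-3p, and miR-548o-3p ranked 17th for miR-769-5p. The members, miR-30a-3p and miR-30e-3p were picked for the same pattern in these libraries, which favours a high r among them. miR-146b-5p shares the low m4 level but not the high belt deletion level, with 49.4 scaled reads with the belt deletion and 72.8 with wild type.

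The opposite arms could not serve as an independent measure. miR-769-3p had 6 reads in all libraries together, 0.691% of the 868 reads of both arms (exact 95% interval 0.254 to 1.5%). By group these were 1 of 655 reads with the belt deletion, 3 of 45 with m4, 1 of 149 with wild type and 1 of 19 with the empty plasmid. All 3 reads with m4 came from m4 library 3. The 5p arm thus made up nearly all mir-769 reads with the belt deletion and with wild type, and the reads with m4 and with the empty plasmid were too few to place the share closely (exact 95% intervals 1.40 to 18.3% and 0.133 to 26.0%). For miR-548o the table used here holds lines for the 3p arm only, and the miR-3158-5p reads repeat those of miR-3158-3p.

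The table lists 17 mature names of this family, of which 1, miR-548o-3p, passed the filter. The other 16 held 124 reads together, against 213 for miR-548o-3p alone, and 12 of them had under 10 reads. Their summed reads were 40 with the belt deletion, 30 with m4, 26 with wild type and 28 with the empty plasmid, beside 186, 3, 22 and 2 reads of miR-548o-3p in the same order. miR-548q, the most abundant of them with 61 reads, had 16, 13, 10 and 22 reads in the same order. miR-548al had 2, 10, 2 and 2, of which 8 of the 10 came from m4 library 1. miR-548f-5p had 8, 0, 3 and 1, and miR-548f-3p 6, 3, 2 and 0. None of the other 16 passed the filter, and no test of them is reported.

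The folds of the RefSeq hairpins of miR-769 and miR-3158 were computed with RNAfold and were not used by the rule; those of MIR548O and MIR548O2 were not analysed here. MIR3158-1 had the lowest folding energy per base of 262 hairpins of tested miRNAs, at -0.910 kcal/mol per nt, with 0 hairpins below it, against a median of -0.453. MIR3158-2 had -0.873, with 2 hairpins below it. In the predicted fold 91.4% of MIR3158-1 bases and 81.5% of MIR3158-2 bases were paired, against a median of 71.0% (quartiles 64.9 and 75.6%). MIR769 lay nearer the middle, with -0.515 kcal/mol per nt (58 hairpins below) and 74.6% of bases paired (187 below). Its annotated hairpin of 118 nt is longer than 257 of the 262, which have a median of 79 nt, so energies are compared per base.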

How the data were processed

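Per the labels' protocols, total RNA (10 µg per library) was separated on a 15% gel and the 19 to 24 nt range sequenced. The authors deposited unnormalised counts, 1 line for each pairing of a mature name with a hairpin (1409 lines), with blanks (read as 0) and no 0. cutadapt, Bowtie2 and hg38 are named in the submitters' processing notes; versions, counter, annotation, strand and multi-mapping are not given in the sources used here. Of repeated mature names the line of highest total was kept, and 9 pairs of names whose counts coincided (within 5 reads or 5% in each library, over 120 reads in total) were merged, which left 1277 miRNAs and 101886 to 332081 reads per library. No library repeated another.

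Each size factor was the median ratio over those DROSHA-independent features that had 20 or more reads throughout. All 12 libraries entered 1 edgeR 4.0.16 fit (quasi-likelihood, robust, R 4.3.3) of the 310 miRNAs past filterByExpr, with Benjamini-Hochberg adjustment and a threshold of 0.05. SE was taken as the absolute log2 change over the root of F. The fit was tested on simulated data. Folds came from RNAfold 2.7.2 and exact tests from scipy 1.17.1. RefSeq sequences matched 1140 of 1277 names. Alternatives were other scalings, no filter, DESeq2 1.42.0, a replicate block, other ways of collapsing, fits of 2 groups, and each library left out. Named miRNAs are the members, their opposite arms, the miR-548 family, the 3 most like miRNAs per member, the others with both calls, the 3 miRNAs of opposite direction with the belt deletion and the size-factor features. The neighbours outside the calls and low-count miR-548 names were picked with their values in view. All members and lists were chosen with earlier results of these data known.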

Additional observations from a re-analysis of the deposited data

How the results depend on the processing

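Across 22 alternatives no member changed direction in any of the 3 comparisons (wild type against empty plasmid, m4 against wild type, belt deletion against wild type); for the last 2 the choice of members favours this. Wild type against empty plasmid had 134 calls (132 higher), but 213 under TMM (125 higher) and 212 under DESeq2 size factors (125 higher). The median log2 change of all miRNAs was then -0.07 and -0.04 in place of 0.72. Under total counts 194 were called (123 higher). With no filter on low counts 200 were called (198 higher), but of 1277 tested miRNAs in place of 310. m4 against wild type had 117 calls (11 higher), but 193 under total counts (133 higher), where the median was 0.86 in place of -0.19; 146 under TMM (54 higher) and 140 under DESeq2 size factors (43 higher). Belt deletion against wild type had 39 calls and 29 to 50 under the alternatives, the highest in the fit of these 2 groups alone. The miR-769-5p change with m4 against wild type was -1.10 under total counts, in place of -2.15. The miR-3158-3p change with wild type against empty plasmid, given as a description, fell from 1.80 to 1.06 under DESeq2 size factors. It was 1.03 under total counts and 1.03 under TMM. Without wild type library 2 it was 1.47 and without empty plasmid library 2 it was 1.57, and it ran up to 2.05 with other libraries left out. For wild type against empty plasmid, miR-769-5p ran from 3.14 to 4.37 over the 22 alternatives, with a largest adjusted p of 1.83e-07 (edgeR or DESeq2), and miR-548o-3p from 3.34 to 4.44 over the 21 that gave it a value. In the fits of 2 groups miR-548o-3p and miR-3158-3p did not pass the filter for wild type against empty plasmid or m4 against wild type and gave no value, and the opposite arms gave no test.

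Samples with the same repeat number did not all deviate together: the correlations of deviations were -0.05, 0.06 and -0.04 between wild type and empty plasmid, -0.05, 0.14 and 0.12 between m4 and wild type, and -0.21, -0.22 and -0.15 between belt deletion and wild type. With the replicate block the calls were 134, 112 and 38 for wild type against empty plasmid, m4 against wild type and belt deletion against wild type. The member changes with wild type against empty plasmid were 3.98, 4.09 and 1.78 for miR-769-5p, miR-548o-3p and miR-3158-3p. The call of miR-769-5p, the member tested there, did not change. Depth limits the low groups: miR-548o-3p and miR-3158-3p had 0 to 10 reads per library outside the belt deletion.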
